A study of Yarrowia lipolytica CLIB122 with 6 samples.

Results

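The transcripts described here are weakly expressed genes of the yeast Yarrowia lipolytica that were less abundant in strain A24 than in strain C24. They were chosen by a rule on the FPKM values themselves. FPKM, the number of sequenced fragments scaled by the length of the transcript and by the size of the library, is a level that can be compared between genes. A transcript was taken when its NCBI gene number lay below 7000000, its mean over the 6 libraries was at least 1 and under 10 FPKM, its A24 mean was at most 0.5 of its C24 mean, and all 3 A24 values lay below all 3 C24 values. The last condition on its own was met by 43.1% of the 6052 transcripts whose mean reached 1 FPKM. The whole rule gave 112 transcripts out of 6452 in the table, or out of 854 that met the limits on the gene number and on the mean. The difference between the strains therefore chose the members, and their levels in the strains are given as a description, without a test.

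The study set out to learn how disruption of the gene called A1 changed a strain that makes fatty alcohols. The labels name the strains only by a letter. A24 was read as YlΔA1-FAR and C24 as WT-FAR, since these are the strains that were compared by RNA-Seq, and this reading was not checked on the A1 transcript itself, which was not analysed here. Both strains derive from one laboratory strain from the ATCC collection with ura3, leu2 and lys8 alleles and an HA tag on PEX17. The labels, however, name the reference strain CLIB122. Both express FAR, a bacterial fatty acyl-CoA reductase, from the TEFin promoter at the IntF site of chromosome F. A LEU2 marker was inserted together with FAR in both. A24 has in addition a short CRISPR/Cas9 deletion inside A1, and C24 has an intact A1. Each strain is represented by 3 libraries from cells grown in rich YPD medium and taken at 24 h, called the initial logarithmic phase. The study names biological replicates for other measurements, such as its growth curves and its A1 transcript levels. Neither its RNA-Seq methods nor the labels say whether each library had a culture of its own. In bulk samples of this kind, a lower level in every cell and a smaller share of cells with the transcript cannot be told apart.

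Y. lipolytica is an oleaginous yeast, which stores lipids and grows on oils and alkanes. FAR reduces fatty acyl-CoA to fatty alcohols. A1 is a hypothetical gene with weak similarity to YND1 of Saccharomyces cerevisiae, which encodes an apyrase of the Golgi, an enzyme that hydrolyses nucleoside di- and triphosphates. Transcripts at a few FPKM lie near the low end of what such libraries measure, and they often come from genes that a yeast uses only on other nutrients, under stress or at other stages of growth. The RefSeq gene table of assembly ASM176148v1, made for strain CLIB89 (W29), gave a YALI1 locus tag and a place in the gene order to 99 of the 112 members, all of them listed as protein coding. It holds no product names, so the members are called by gene number and tag and no role is given for them. The other 13 members are named by number alone.

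The 6 libraries had similar totals, which were slightly higher in A24. The summed FPKM over all transcripts was 1266078 to 1303563 in A24 and 1208546 to 1226334 in C24, so that the strains did not overlap. Scaling to equal totals left every member in place and added others, 124 in all. Scaling by the median ratio between libraries (median-of-ratios) instead gave 92 transcripts, of which 91 were members. The summed FPKM of the 112 members was 184, 176 and 181 in the A24 libraries, against 551, 501 and 527 in the C24 libraries. The median member stood at 1.24, 1.22 and 1.25 FPKM in A24 and at 3.53, 2.85 and 3.53 FPKM in C24. Single members ranged from 0 to 5.93 FPKM over the A24 libraries and from 1.04 to 15.1 FPKM over the C24 libraries. Every member was thus seen at 1 FPKM or more in every C24 library, while 31 of the 112 were under 1 FPKM in every A24 library. C24 replicate 2 was the lowest of its strain in 50 members, and C24 replicate 1 was the highest in 54.

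**Figure D1:**
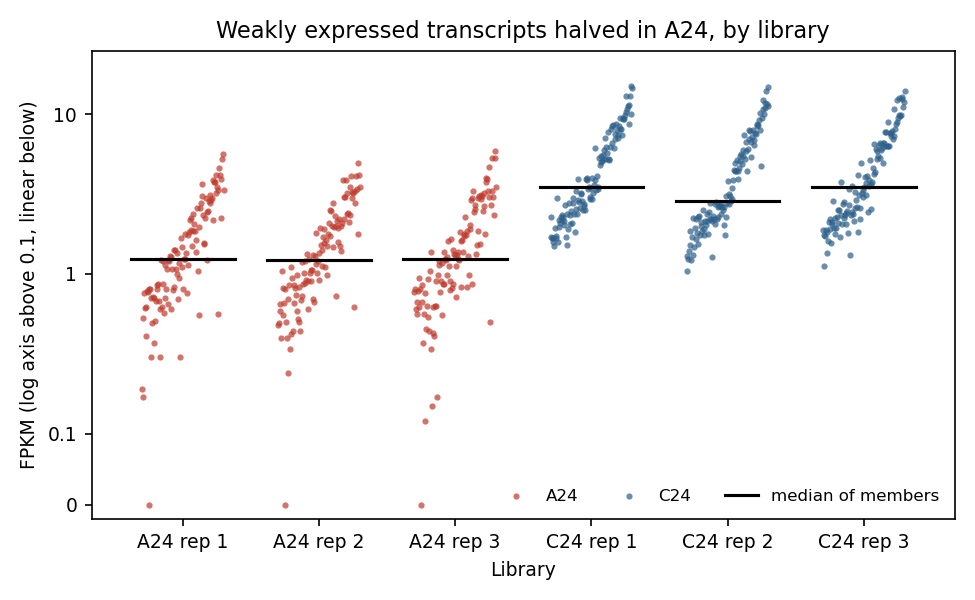
FPKM of the 112 members in each library (log axis above 0.1, linear below), with the 3 A24 libraries left of the 3 C24 libraries, each point a member in order of its mean and each bar the median of the members. The medians lie at 1.22 to 1.25 FPKM in A24 and at 2.85 to 3.53 FPKM in C24.

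Members differed in how far they lay below the limit of the rule. The ratio of the A24 mean to the C24 mean had a median of 0.374 and a central range, from the first to the third quartile, of 0.292 to 0.446. In 11 members it was at most 0.2, in 53 it lay between 0.2 and 0.4, and in 48 it lay above 0.4. Only 9 members reached a C24 mean of 10 FPKM, 52 had a C24 mean of 3 to 10 FPKM and 51 had one under 3 FPKM. Transcripts on either side of a limit differed little. At the limit of 0.5, gene 2906441 (YALI1_A00683g) was inside with a ratio of 0.496 and gene 2910118 was outside with 0.501. At the upper limit on the mean, gene 2907428 (YALI1_B27968g) was inside with a mean of 8.96 FPKM and gene 2912838 (YALI1_E15502g) was outside with 10.2 FPKM. At the lower limit, gene 2907510 was inside with 1.01 FPKM and gene 2912876 (YALI1_E40915g) was outside with 0.973 FPKM.

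The demand for separate strains removed only 3 transcripts. Of these, gene 2908954 (YALI1_F27758g) was listed at 0 in all libraries except C24 replicate 2, where it had 9.84 FPKM. Gene 2906010 (YALI1_A18219g) had 1, 1.39 and 0 FPKM in the A24 libraries, against 4.78, 0.94 and 1.9 FPKM in the C24 libraries. Gene 2909925 (YALI1_C27019g) had 0.64, 1.16 and 3.49 FPKM in the A24 libraries, against 4.82, 5.9 and 2.99 FPKM in the C24 libraries. In both 2906010 and 2909925 the ranges of the strains overlapped. Among the members, the smallest gap between the strains was that of gene 2909334 (YALI1_C11836g), with 4.19, 3.24 and 4.68 FPKM in the A24 libraries, against 9.88, 4.72 and 12.3 FPKM in the C24 libraries. It rested on C24 replicate 2, which stood just above the highest A24 library.

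**Figure D2:**
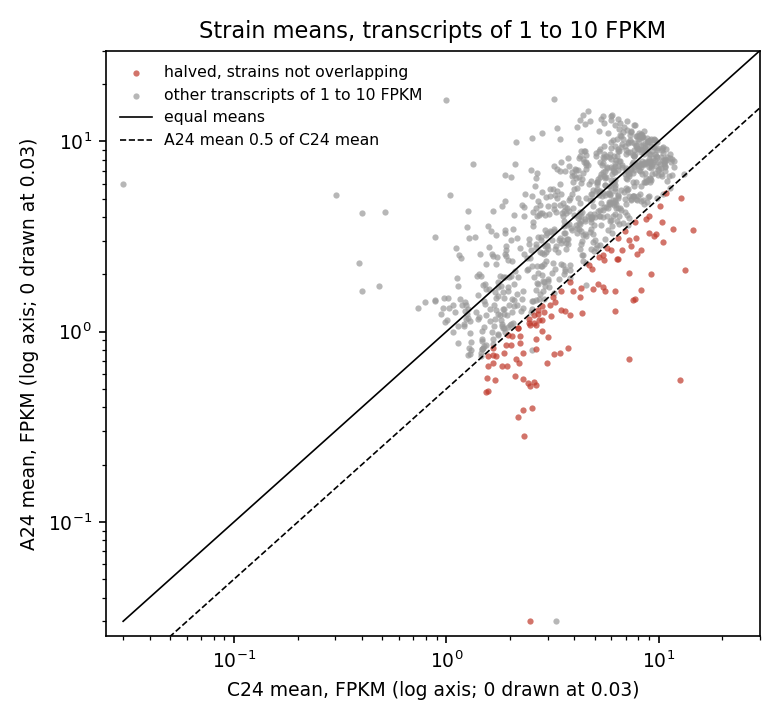
A24 mean against C24 mean in FPKM (both axes logarithmic, with a mean of 0 drawn at 0.03) for the 854 transcripts with a mean of 1 to 10 FPKM, with the 112 members in red. The solid line marks equal means and the dashed line an A24 mean at 0.5 of the C24 mean, below which all members lie.

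The best expressed members were taken as the 10 with the highest C24 mean, and they included some of the steepest differences. Gene 2907428 (YALI1_B27968g) had 3.35, 3.48 and 3.49 FPKM in the A24 libraries, against 14.7, 14.8 and 13.97 FPKM in the C24 libraries. The values within each strain hardly differed, and the A24 mean was 0.238 of the C24 mean. Gene 2909942 (YALI1_C26873g) had 2.23, 1.78 and 2.34 FPKM in the A24 libraries, against 13.1, 13.9 and 12.8 FPKM in the C24 libraries, a ratio of 0.160. Gene 2911307 (YALI1_D21586g) had 0.56, 0.62 and 0.5 FPKM in the A24 libraries, against 12.97, 12.4 and 12.7 FPKM in the C24 libraries. With a ratio of 0.0442 it was the most reduced member that was not listed at 0 in A24, and no library of one strain came near those of the other.

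The remaining members of this group kept a larger part of their C24 level. Gene 2912610 (YALI1_E30561g) had 5.62, 4.18 and 5.33 FPKM in the A24 libraries, against 15.1, 11.2 and 11.99 FPKM in the C24 libraries, with C24 replicate 1 above the rest. Gene 2912348 (YALI1_E41893g) had 3.92, 3.42 and 3.03 FPKM in the A24 libraries, against 11.5, 11.01 and 12.5 FPKM in the C24 libraries, a ratio of 0.296. Gene 2911786 (YALI1_E23790g) had 5.24, 4.96 and 5.93 FPKM in the A24 libraries, against 9.99, 11.7 and 11.03 FPKM in the C24 libraries, close to the limit of the rule. In all 3 the strains stayed apart, which the rule demands of every member. Gene 2912348 had means of 3.46 ± 0.446 FPKM in A24 and 11.7 ± 0.761 FPKM in C24 (SD, n = 3 each). For 2911786 the means were 5.38 ± 0.499 FPKM in A24 and 10.9 ± 0.843 FPKM in C24 (SD, n = 3 each). Gene 2910624 (YALI1_D05111g) had 3.35, 2.78 and 2.71 FPKM in the A24 libraries, against 10.7, 10.8 and 9.85 FPKM in the C24 libraries. Gene 2912525 (YALI1_E11351g) had 4.61, 3.32 and 3.33 FPKM in the A24 libraries, against 11.2, 10.1 and 9.69 FPKM in the C24 libraries, with A24 replicate 1 above the other A24 libraries. Neither gene had a C24 library near those of A24. Gene 2909922 (YALI1_C26959g) had 4.18, 4.12 and 5.36 FPKM in the A24 libraries, against 8.73, 11.8 and 9.92 FPKM in the C24 libraries. Gene 2910198 (YALI1_D20413g) had 3.53, 3.23 and 3.02 FPKM in the A24 libraries, against 10.3, 9.46 and 9.53 FPKM in the C24 libraries. In both 2909922 and 2910198 the lowest C24 library stood well above the highest A24 library.

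The most reduced members were mostly weaker still. Gene 2912106 (YALI1_E03150g) was the only member listed at 0 in every A24 library, where the C24 libraries had 2.99, 2.24 and 2.2 FPKM, and no fold is given for it. Gene 2906178 (YALI1_A11797g) had 0.55, 0.73 and 0.87 FPKM in the A24 libraries, against 7.73, 7.41 and 6.58 FPKM in the C24 libraries, a ratio of 0.0990. It combined a C24 level above that of most members with A24 values under 1 FPKM in every library. Gene 2908985 (YALI1_F11363g) had 0.49, 0.24 and 0.12 FPKM in the A24 libraries, against 2.28, 1.8 and 2.87 FPKM in the C24 libraries. Gene 2906439 had 0.3, 0.74 and 0.15 FPKM in the A24 libraries, against 1.9, 1.91 and 3.79 FPKM in the C24 libraries, so that C24 replicate 3 stood well above the other C24 libraries. Gene 2906421 (YALI1_A12037g) had 0.3, 0.4 and 0.37 FPKM in the A24 libraries, against 2.19, 2.2 and 2.12 FPKM in the C24 libraries, with hardly any spread in C24. The ratios of the last 3 genes were 0.122, 0.157 and 0.164.

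**Figure D3:**
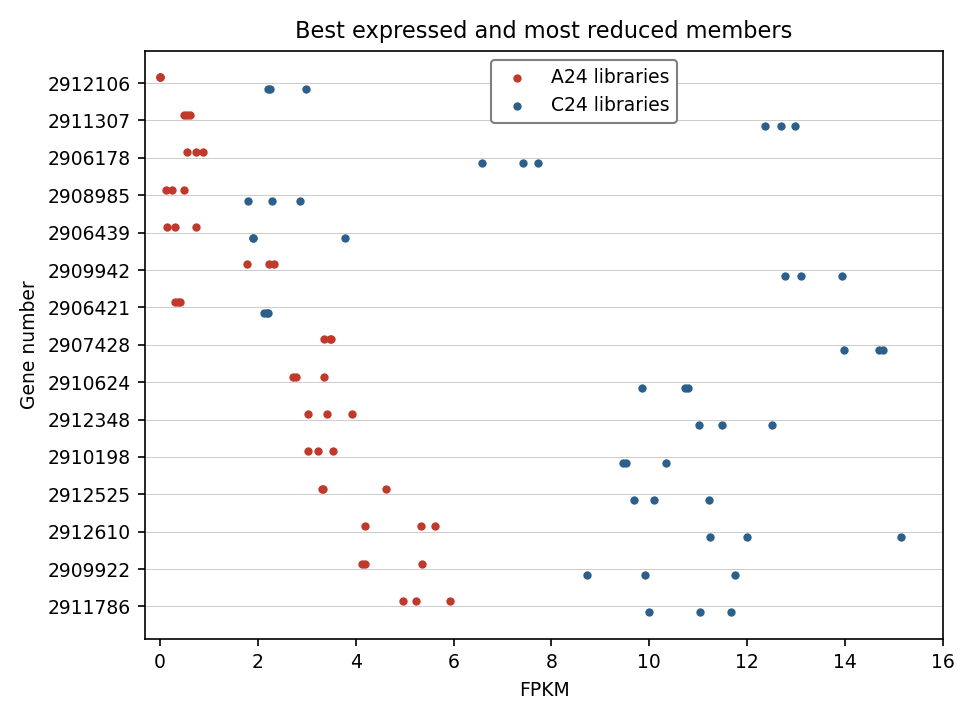
FPKM in each library of the 10 members with the highest C24 mean, the 6 with the smallest ratio above 0 and the member listed at 0 in A24, from the smallest ratio at the top to the largest at the bottom. A24 libraries are red and are drawn just above the C24 libraries, in blue. By the rule, the C24 libraries lie to the right in all 15 genes.

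A fit by limma, a linear model whose estimate of the spread is shared between transcripts, was run on log2(FPKM + 0.1) for the same 6052 transcripts. A call needed an adjusted p-value under 0.05 (Benjamini-Hochberg) and a log2 difference beyond 1. Lower calls made up 2.71% of the transcripts tested and numbered 164, and higher calls made up 3.85%. The members contributed 107 of the lower calls, a count that follows from the way they were chosen and from which nothing is read. The log2 differences of the other 5 members lay between -0.99 and -0.92, just short of the limit, and they include the genes 2910819 (YALI1_D16531g) and 2906441 (YALI1_A00683g). With a pseudocount of 1 in place of 0.1, 50 of the members were called, and after quantile normalization 68. The median log2 difference over the members was -1.37, beside -0.09 over all transcripts tested.

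The share of transcripts that met the rule on the strains differed with the level of expression. With a mean of 1 to 10 FPKM, 13.1% of the 854 transcripts were at most 0.5 of C24 and separate between the strains, against 2.77% of the 5893 transcripts of all levels from 1 FPKM upward. The share was 28.1% at 1 to 2 FPKM, 15.7% at 2 to 3 FPKM, 13.1% at 3 to 5 FPKM and 5.60% at 5 to 10 FPKM. It was 1.64% at 10 to 20 FPKM and 0.765% from 50 FPKM upward. The opposite change, an A24 mean at least 2 times the C24 mean with separate strains, was met by 3.37%, 11.1%, 8% and 7.38% of the transcripts in the same 4 ranges up to 10 FPKM. Members were therefore concentrated at the weak end, with 50 of the 112 under a mean of 2 FPKM, where transcripts doubled in A24 were few.

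**Figure D4:**
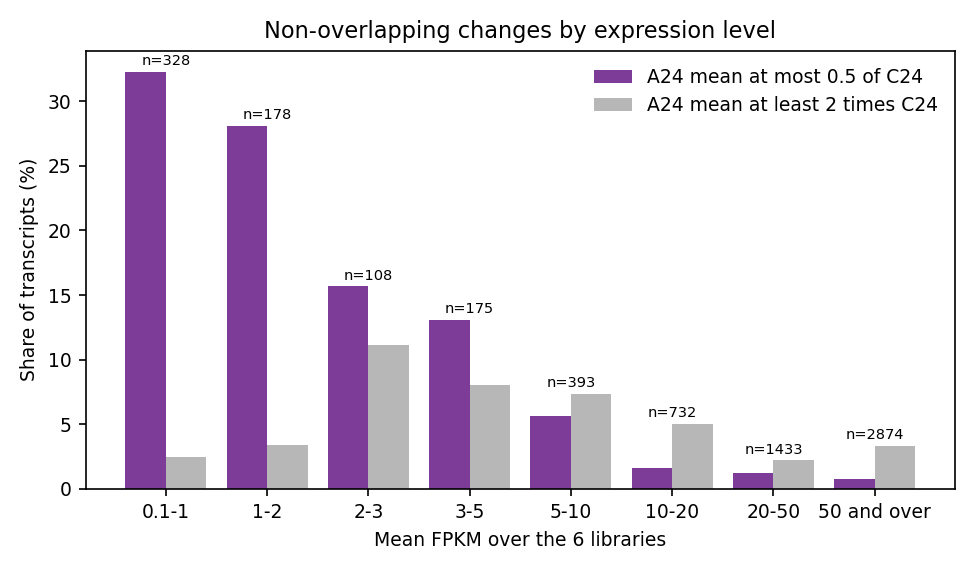
Share of transcripts (%) whose A24 mean was at most 0.5 of the C24 mean (purple) or at least 2 times it (grey), in both cases with no overlap between the strains, by mean FPKM over the 6 libraries, with the number of transcripts above each pair of bars. The purple bars fall from 32.3% at 0.1 to 1 FPKM to 0.765% from 50 FPKM upward.

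The weakest transcripts, which the rule left out, also summed to less in every A24 library than in any C24 library. The 386 transcripts with a gene number below 7000000 and a mean under 1 FPKM, none of them a member, summed to 117, 116 and 120 FPKM in the A24 libraries, against 193, 177 and 205 FPKM in the C24 libraries. Their sum in A24 was 0.614 of that in C24, and the libraries of the strains did not overlap. An exact two-sided permutation test gave p = 0.10, the smallest value that 3 libraries against 3 allow. Among the 6279 transcripts with a gene number below 7000000, the number listed at 0 was 98, 101 and 100 in A24 and 74, 61 and 63 in C24, again with p = 0.10 in the same exact test. All 854 transcripts of 1 to 10 FPKM summed to 3961 to 4207 FPKM in A24 and to 4039 to 4270 FPKM in C24, with overlapping strains. This sum includes the members, which the rule chose as lower in A24, so no test of it is given. It rests mostly on the 5 to 10 FPKM range. The 742 transcripts that were not members summed to 3949, 3785 and 4026 FPKM in the A24 libraries. In the C24 libraries they summed to 3719, 3538 and 3721 FPKM, less than in any A24 library. The rule had taken halved transcripts out of these 742, so their sums are a description too. By single transcripts, members included, the lower levels reached further up. At 1 to 2 FPKM, where 50 of the members lie, the median ratio was 0.650 and 137 of 178 transcripts (77.0%) had a lower mean in A24. The median ratio was 0.834 at 2 to 3 FPKM, 0.893 at 3 to 5 FPKM and 1.01 at 5 to 10 FPKM. The part that this shift of the weakest transcripts has in the levels of the members was not tested.

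The members differed in how closely the libraries of a strain agreed. The coefficient of variation, the SD over the mean of 3 libraries, had a median of 19.2% in A24 and of 12.4% in C24. Over all 854 transcripts of 1 to 10 FPKM the medians were 11.2% in A24 and 10.4% in C24, and at 1 to 2 FPKM they were 19.8% in A24 and 16.8% in C24. The variation was above 30% in 24 members for A24 and in 11 members for C24. The rule asks for strains that do not overlap, which can favour a small spread, but this demand removed only 3 transcripts.

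The 3 members with the highest variation within a strain were 2908985, 2906439 and 2909149. Gene 2909149 had 0.17, 0.49 and 0.81 FPKM in the A24 libraries, against 2.27, 1.3 and 1.13 FPKM in the C24 libraries. In this gene the A24 values were spread over a wider range in proportion than those of C24. Gene 2906377 had 1.2, 0.88 and 1.18 FPKM in the A24 libraries, against 3.96, 2.2 and 1.31 FPKM in the C24 libraries, with C24 replicate 3 close to the A24 libraries. Gene 2907918 (YALI1_F38013g) had 0.65, 1.02 and 0.77 FPKM in the A24 libraries, against 3.3, 1.27 and 3.41 FPKM in the C24 libraries, with C24 replicate 2 close to the A24 libraries.

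The members were spread over all 6 chromosomes of the RefSeq order. Of the 99 with a place, 16 lay on chromosome A, 13 on B, 20 on C, 15 on D, 22 on E and 13 on F. They made up 10.2% to 15.5% of the transcripts of 1 to 10 FPKM on each chromosome, from F to C, beside 12.8% over all. The order of the genes comes from strain CLIB89 (W29), and the order in the strains of the study was not analysed here. Places count only genes that have a row in the FPKM table.

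Among measured genes, members stood side by side at the right end of chromosome E. The last 4 measured genes of this chromosome were all members, and so were 5 of the last 7. From the centre towards the end, the last 4 were genes 2912283 (YALI1_E41699g), 2912284 (YALI1_E41754g), 2912347 (YALI1_E41850g) and 2912348, the last being also the last entry of the RefSeq table on this chromosome. Gene 2912283 had 0.85, 0.66 and 1.04 FPKM in the A24 libraries, against 1.7, 1.87 and 2.5 FPKM in the C24 libraries. Gene 2912284 had 0.81, 0.92 and 0.72 FPKM in the A24 libraries, against 3.97, 3.8 and 3.51 FPKM in the C24 libraries. Gene 2912347 had 1.86, 1.74 and 1.75 FPKM in the A24 libraries, against 5.07, 3.93 and 6.53 FPKM in the C24 libraries, and gene 2912348 was given above among the best expressed members. By the rule the strains did not overlap in any of them. The A24 means were 0.420, 0.217, 0.344 and 0.296 of the C24 means.

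One more member, gene 2912145 (YALI1_E41514g), lay 3 places further in and had 1.49, 1.77 and 1.78 FPKM in the A24 libraries, against 5.02, 5.16 and 4.61 FPKM in the C24 libraries. Between it and the last 4 lay 2 much better expressed genes that were not reduced to this degree. Gene 2912146 (YALI1_E41569g) had 126, 123 and 132 FPKM in the A24 libraries, against 156, 154 and 162 FPKM in the C24 libraries. Gene 2912147 (YALI1_E41610g) had 558, 571 and 547 FPKM in the A24 libraries, against 556, 582 and 574 FPKM in the C24 libraries. The 15 other genes among the last 20 had ratios of 0.646 to 4.90 with a median of 1.12, and 7 of them had a lower mean in A24. Of the 20, 7 were in the range of 1 to 10 FPKM, and 5 of these were the members. As background, some genes next to telomeres are kept weakly expressed by silencing proteins in S. cerevisiae. At each of the other 11 chromosome ends the 10 outermost measured genes held at most 3 transcripts of 1 to 10 FPKM, so that a run of 4 members could not occur there. Of these 11 transcripts 1 was a member, gene 2907744 (YALI1_F39844g) at the right end of chromosome F, with 1.05, 1.97 and 1.91 FPKM in the A24 libraries, against 6.27, 5.98 and 6.45 FPKM in the C24 libraries.

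**Figure D5:**
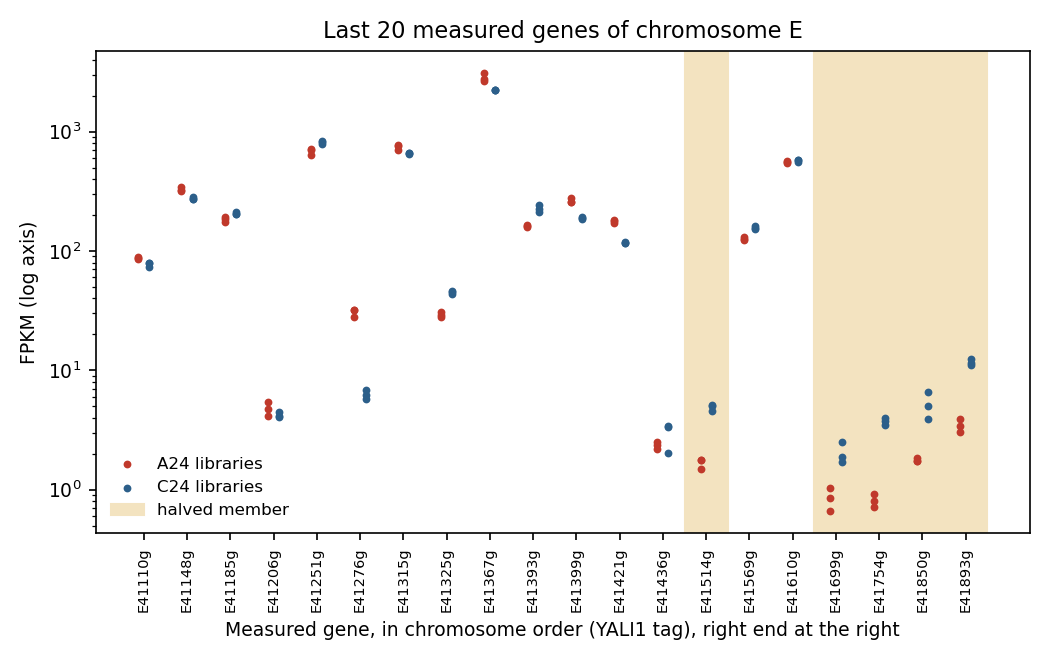
FPKM (log axis) of the last 20 measured genes of chromosome E in the RefSeq order, with the right end of the chromosome on the right, A24 libraries in red and C24 libraries in blue. Members are shaded, among them the last 4 genes. By the rule, every A24 library lies below every C24 library in each member.

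Elsewhere members lay side by side in only a few places. Of the 99 members with a place, 8 had another member as the next measured gene, the last 4 of chromosome E and a pair each on chromosomes A and D. Within 3 places of another member there were 18. With every RefSeq entry counted as a place, only 5 members had another member next to them. On chromosome A, genes 2906356 (YALI1_A11676g) and 2906178 were neighbours among measured genes, and gene 2906421 lay 3 places further on. Gene 2906356 had 0.71, 0.69 and 0.17 FPKM in the A24 libraries, against 2.77, 2.77 and 2.41 FPKM in the C24 libraries. Of the 2 genes between them, 2906442 (YALI1_A11954g) had 0.04, 0.04 and 0 FPKM in the A24 libraries, against 0.39, 0.5 and 0.25 FPKM in the C24 libraries, so that it too was lower in A24 but lay under the limit of 1 FPKM. Gene 2906216 (YALI1_A11905g) had 9.83, 5.26 and 7.34 FPKM in the A24 libraries, against 10.7, 9.76 and 8.78 FPKM in the C24 libraries, with overlapping strains. There are 13 RefSeq entries between the outer genes of this stretch, most of them without a row in the FPKM table.

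The pair on chromosome D was less reduced. Gene 2910819 had 0.68, 0.82 and 1.37 FPKM in the A24 libraries, against 2.38, 1.76 and 1.7 FPKM in the C24 libraries. Gene 2910820 had 0.68, 0.94 and 0.54 FPKM in the A24 libraries, against 2.14, 2.01 and 2.26 FPKM in the C24 libraries, and no entry of the RefSeq table lies between the 2 genes. On chromosome C, genes 2909334 and 2909337 (YALI1_C11902g) lay 3 places apart. Gene 2909337 had 0.3, 1.16 and 0.87 FPKM in the A24 libraries, against 3.53, 1.76 and 4.97 FPKM in the C24 libraries, and both had their lowest C24 value in replicate 2. The genes between them did not share this, with 1199, 1207 and 1246 FPKM in the A24 libraries, against 1016, 1067 and 956 FPKM in the C24 libraries for gene 2909335 (YALI1_C11862g) and 29.7, 27.9 and 31.5 FPKM in the A24 libraries, against 28.4, 29.5 and 32.7 FPKM in the C24 libraries for gene 2909336 (YALI1_C11883g). Genes 2909942 and 2909922 were likewise 3 places apart on chromosome C, on either side of genes at ratios of 1.065 and 0.708. On chromosome E, away from its end, gene 2911785 (YALI1_E23824g) lay 2 places from 2911786 and had 0.51, 1.1 and 0.93 FPKM in the A24 libraries, against 2.04, 1.76 and 1.95 FPKM in the C24 libraries. Genes 2912969 (YALI1_E35780g) and 2912998 (YALI1_E35831g) were also 2 places apart. Gene 2912969 had 3.21, 2.99 and 3.31 FPKM in the A24 libraries, against 9.41, 10.2 and 8.9 FPKM in the C24 libraries. Gene 2912998 had 1.07, 1.06 and 1.6 FPKM in the A24 libraries, against 2.74, 2.75 and 2.63 FPKM in the C24 libraries, with A24 replicate 3 above the other A24 libraries. The strains stayed apart in both, by the rule. The gene between them, 2912997 (YALI1_E35815g), had a ratio of 0.686.

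Beside the members lay 185 measured genes that were not members. Their median ratio was 0.908, beside 0.935 over all 6073 measured genes with a place, and every A24 value lay below every C24 value in 83 of them, beside 2622 of the 6073.

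The 112 members can be set beside similar groups chosen by the same limits. The 51 transcripts at 10 FPKM or more with the same reduction had a median ratio of 0.402, beside 0.374 for the members, and 2 of their 48 with a place were next to one another, beside 8 of 99. The 61 transcripts of 1 to 10 FPKM that were at least 2 times as abundant in A24, 7.14% of that range, had a median ratio of 2.55, and none of their 57 with a place was next to another. Their means over the 6 libraries had a median of 4.77 FPKM, beside 2.26 FPKM for the members. These are descriptions, since the same contrast chose all 3 groups. A larger group also has more chances of neighbours, so the counts of neighbours cannot be compared directly.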

How the data were processed

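RNA-Seq was measured in 6 libraries, 3 of A24 and 3 of C24, and all were used. RNA freed of rRNA was sequenced on the BGISEQ-500 platform, and reads were filtered with SOAPnuke. The authors calculated expression with RSEM and deposited FPKM values for each transcript, rounded to 2 decimals. The submitters' processing notes name HISAT2 2.0.4, Bowtie2 2.2.5, RSEM 1.2.12 and DESeq2 1.4.5, without saying for which step. The genome build of this step is not given in the sources used here. FPKM keeps no fragment counts, so the depth behind each value is unknown.

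The rule for members was applied to the deposited values. Members and lists were chosen with earlier results of these data known. Transcripts whose mean reached 1 FPKM were compared by limma 3.58.1 in R 4.3.3 (lmFit, eBayes with a trend) on log2(FPKM + 0.1), with Benjamini-Hochberg adjustment over 6052 transcripts. This fit was tested on simulated data. NOISeq, which the study names, was not run.

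Named genes are the 10 members with the highest C24 mean, the member listed at 0 in A24, the 6 smallest ratios above 0, members next to each other, those nearest the limits and the 3 with the highest variation within a strain. Genes between members, members within 3 places of each other, and the member at the end of chromosome F were chosen after values were seen. Python 3.11, pandas 2.3.3 and matplotlib 3.10.9 were used. No sequences were shown, since the table used holds none, and its coordinates, from another strain, were not used beyond the gene order.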

Additional observations from a re-analysis of the deposited data

How the results depend on the processing

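The rule gave 112 members on the deposited values, 92 after median-of-ratios scaling and 124 with libraries scaled to equal totals, and 91 and 112 of these were the same transcripts. It gave 64 with a ratio of at most 0.4, 45 with a mean of 3 to 10 FPKM and 156 with a mean of 0.5 to 10 FPKM, by construction. Without each library in turn it gave 111 to 121, of which 99 to 107 were members. Calls by limma over all transcripts, 164 lower and 233 higher, were 101 lower with a pseudocount of 1 and 249 lower without the filter, and 154 to 176 lower and 221 to 236 higher without each library. Of the members, 107 were called, 50 with a pseudocount of 1, 68 after quantile normalization, 89 after median-of-ratios scaling and 93 to 105 without each library, and the cause was not tested. After median-of-ratios scaling 132 lower and 272 higher transcripts were called, and after quantile normalization 123 lower and 250 higher. The median log2 difference of the members, -1.37, was -0.95 with a pseudocount of 1 and -1.43 to -1.30 without each library. The median variation of members with a mean of at least 3 FPKM was 8.20% in C24, against 12.4% for all members. Next to another member were 8 members, 18 within 3 places, and 5 when every entry of the RefSeq table counts as a place, an alternative chosen after seeing the data.

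With the replicate number as a block, 166 lower and 233 higher transcripts and 107 members were called. The labels give no link between libraries with the same number, and their deviations from the strain means had correlations of -0.02, 0.04 and 0.08 across transcripts, and not every library correlated best with its own number. Of 34 members, the 28 named by the rule and 6 given for their position, all kept their direction in the other settings, which their choice makes likely. Alternatives for related proteins, hydrophobic segments and promoter motifs were not run, since no sequences were used, and the A1 gene was not analysed here.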

Other observations

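A single transcript outside the range of gene numbers met all other limits of the rule. Gene 7009551 (YALI1_E15606g) was listed at 0 in every A24 library, against 1.2, 8.28 and 2.53 FPKM in the C24 libraries, with C24 replicate 2 far above the others. No transcript with a BGI_novel identifier met them.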
